A study of Mus musculus with 24 samples.

Results

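Voltage-gated calcium channels open when the membrane is depolarised and let calcium into the cell, and the alpha subunit forms the pore and the voltage sensor. The 7 alpha subunit genes Cacna1a, Cacna1b, Cacna1c, Cacna1d, Cacna1g, Cacna1h and Cacna1i, chosen by symbol, were followed here in the mouse SCN (suprachiasmatic nucleus), the part of the hypothalamus that keeps daily time. All 7 were measured, each by 1 probe set, among 19938 genes with a probe set of a single symbol. All 7 passed the filter on dim genes (mean log2 intensity of at least 5.52), which 13956 genes passed. Each of 24 arrays carried SCN RNA pooled from 3 C57/BL6 mice that had been kept for 3 weeks in 12 h of light and 12 h of darkness and then in complete darkness. The first array was taken at CT 18 and the last at CT 64 (CT, circadian time in hours), with a step of 2 h and no replicate at any time. The first 12 arrays, up to CT 40, form the first cycle and the last 12 the second. Both cover the same 12 circadian times, counted from 0 to 22 h.

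The family falls into types by the current it carries. Cacna1a encodes the P/Q type and Cacna1b the N type, both known for triggering transmitter release at nerve endings. Cacna1c and Cacna1d encode L type channels, which open at high voltage in general, are the target of dihydropyridine drugs and couple calcium entry to gene expression; the Cacna1d channel opens at lower voltages than that of Cacna1c. Cacna1g, Cacna1h and Cacna1i encode T type channels, which open briefly near the resting potential. SCN neurons fire faster by day than by night, and L and T type currents are among those described in their daytime firing.

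Upstream sequence from RefSeq (GRCm38.p6) could be matched for 4 of the 7 genes, in 7 windows of 250 bases before an annotated start. The windows of Cacna1b and Cacna1c are shown because these genes, of the N and L types, differed in daily timing. Capitals mark TGACG, the core of the cAMP response element, searched on both strands. The Cacna1b window is chr2:24763153-24763402 on the minus strand. The Cacna1c window, the only 1 of 3 for that gene that held TGACG, is chr6:119196410-119196659 on the minus strand. Both are written 5′ to 3′.
Cacna1b: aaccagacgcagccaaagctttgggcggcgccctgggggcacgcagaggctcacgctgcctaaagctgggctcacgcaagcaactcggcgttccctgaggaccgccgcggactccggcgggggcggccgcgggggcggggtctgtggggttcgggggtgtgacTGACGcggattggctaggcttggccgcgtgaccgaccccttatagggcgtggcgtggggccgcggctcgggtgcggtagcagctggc
Cacna1c: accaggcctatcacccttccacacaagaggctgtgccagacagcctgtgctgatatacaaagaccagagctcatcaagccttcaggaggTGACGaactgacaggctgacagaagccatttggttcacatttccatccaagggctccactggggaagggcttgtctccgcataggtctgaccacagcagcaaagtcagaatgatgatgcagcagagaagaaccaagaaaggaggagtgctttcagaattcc
This core began 87 bases before the start in the Cacna1b window and 161 bases before it in the Cacna1c window. Another lay in the window of Cacna1i, so that 3 of 7 windows held it, against 17.8% of the 32851 windows of all genes. The full response element TGACGTCA, the E-box CACGTG, the E-box variant CACGTT, the D-box TTATGTAA and the ROR core AGGTCA were in 0 of the 7 windows. Among all windows they were held by 1.55%, 6.02%, 3.85%, 0.819% and 14%, and these letters were searched in these windows alone. The Cacna1b window had a GC content of 72.0% and the Cacna1c window shown of 51.6%, with a median of 52.4% over all windows. The other windows of Cacna1c had 50.4% and 82.8%. Which start of Cacna1c is used in the SCN was not measured.

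The first question was which channel genes rise and fall over 24 h without light. Values are log2 intensities, and a 24-h cosine was fitted to the 24 arrays of each gene. The amplitude is the log2 distance from the mean to the peak, with the standard error of the fit, and a gene is called when the adjusted p of limma's moderated F test over all 13956 genes is under 0.05. Of the 7 channel genes 4 were called, Cacna1a, Cacna1b, Cacna1c and Cacna1g, against 7.65% of all genes tested. All 4 peaked between 22 and 4 h, around the start of the subjective day. This window held the peaks of 51.3% of all called genes, which are 3.92% of the genes tested, so a peak there is common in these data. The median amplitude was 0.13 over the 7 genes and 0.07 over all genes tested. The 4 called genes lie at the 74th to 81st percentile of mean intensity. With the filter at the 50th percentile fewer genes were tested, yet 1238 were called, 5 of them channel genes. The share called is thus higher than 7.65% among brighter genes.

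A few arrays stood apart, those at CT 40, CT 62 and CT 64 (circadian times 14 and 16). Their interquartile ranges were 2.48 to 2.67 against 2.72 to 2.90 in the others. CT 40 stood furthest off with 2.48, while CT 62 and CT 64 had 2.67 and 2.65. The median correlation with the other arrays was 0.979 for CT 40 and 0.992 for CT 62 and CT 64, the same as for CT 18. Receptor genes of smell, 1194 in all and used here as a gauge of dim probes, averaged 0.16 to 0.34 above their series mean on these 3 arrays, against -0.15 to 0.04 on the other 21. These are called the 3 narrow arrays below, and that average the background level. Their times lie opposite to the peaks of the called channel genes, so values are given with all arrays, without the 3 narrow arrays, and with the background level as a covariate. Beyond those values its part was not tested. Marker genes were looked at beside the tissue label: all 8 SCN neuron markers (among them Avp, Vip and Six6) were measured and above the filter. So were the 8 measured markers of neighbouring hypothalamic neurons, so passing the filter does not set the SCN apart. The mean of the SCN markers, 4 of them called for a 24-h rhythm, ranged from -0.65 at CT 64 to 0.35 at CT 32 around its series mean. The mean of 5 anterior pituitary markers ranged from -0.74 to 2.79 around its series mean and was highest at CT 20. The mean of 6 oligodendrocyte markers ranged from -0.72 at CT 40 to 0.44 at CT 20. In such tissue samples fewer cells of a type and less RNA per cell cannot be told apart.

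Cacna1g, a T type gene like Cacna1h and Cacna1i, had the largest rhythm of the 7. In the first cycle its log2 value had a lowest value of 7.49, a median of 7.93 and a highest value of 8.13, and in the second cycle these were 7.72, 8.06 and 8.20. At circadian time 4 it read 8.13 in the first cycle and 8.17 in the second, and at circadian time 16 it read 7.49 and 7.75. All 10 arrays from circadian times 0 to 8 read 7.97 or more, and all 10 arrays from 10 to 18 h read 7.91 or less. These ranges do not overlap, but the times were grouped after seeing the values, so this is a description only. The arrays at 20 and 22 h, from 7.93 to 8.18, reach from just above the low range into the high one. The fitted amplitude was 0.21 ± 0.03 with a peak at 2.88 ± 0.58 h, a 1.34-fold change from trough to peak (limma, adjusted p = 0.000994). Fitted to each cycle alone, the amplitude was 0.21 ± 0.04 in both, with peaks at 3.47 ± 0.75 h and 2.30 ± 0.72 h. Means over both cycles ran from 7.62 at 16 h to 8.15 at 4 h. With the 12 time means ordered by level, 2 of 11 steps exceeded the spread between cycles at a time (SD 0.11). Ordered steps share 1 range, here 0.53, so most are small whatever the rhythm. This count, here and below, is therefore no measure of the rhythm. Both arrays at circadian time 16, CT 40 and CT 64, are among the 3 narrow ones.

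**Figure D1:**
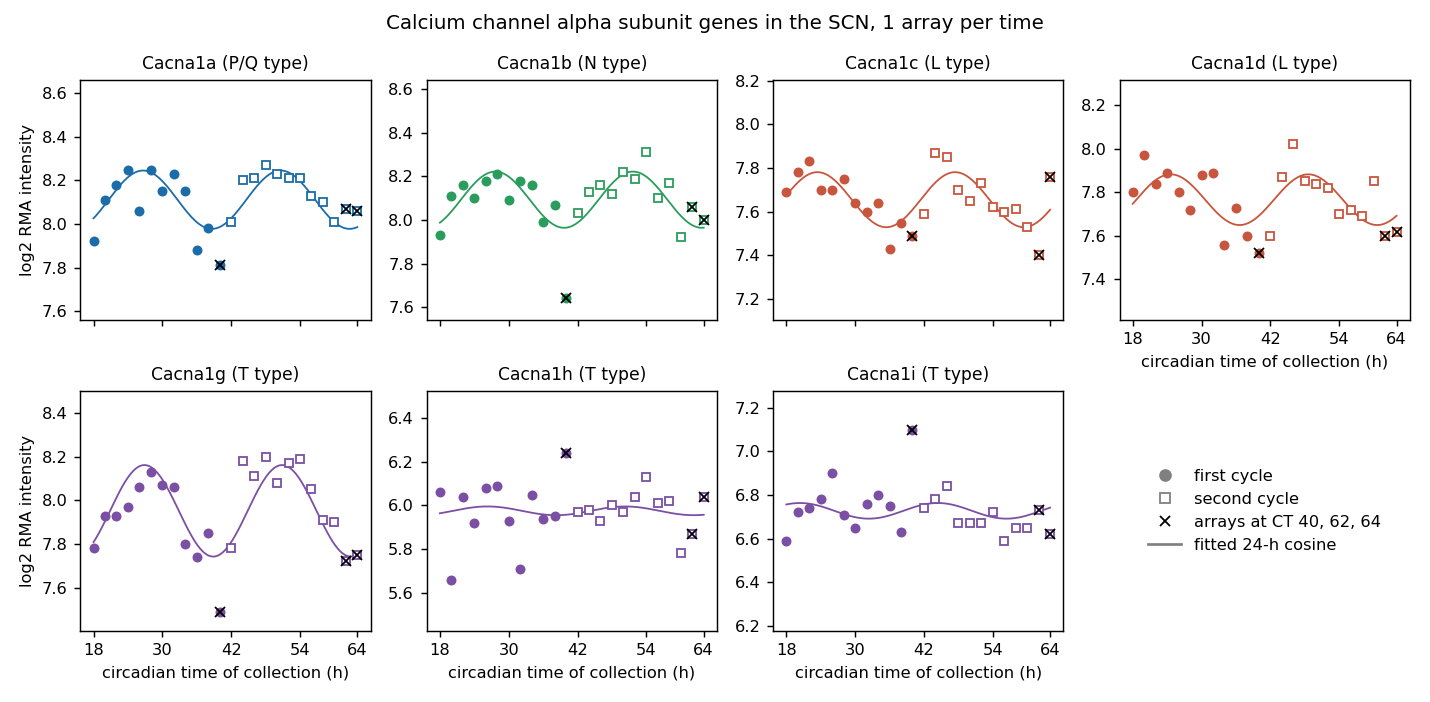
The log2 intensity of each of the 7 channel genes is plotted against circadian time of collection, with 1 array per point, filled circles for the first cycle, open squares for the second, crosses on the 3 narrow arrays, and the fitted 24-h cosine as a line; each panel spans 1.1 log2 units. Cacna1g swings from 7.62 at 16 h to 8.15 at 4 h in the means of both cycles, while the values of Cacna1h, from 5.66 to 6.24, scatter around a nearly flat fit (amplitude 0.02).

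Cacna1a, the P/Q type gene, followed a like course with a smaller swing. Its values had a lowest of 7.81, a median of 8.13 and a highest of 8.25 in the first cycle, and 8.01, 8.17 and 8.27 in the second. The highest mean of both cycles was 8.26 at circadian time 0 and the lowest 7.93 at 16 h, where the first cycle read 7.81 and the second 8.06. From circadian times 20 to 10 h the arrays read 8.06 to 8.27, and from 12 to 18 h they read 7.81 to 8.07. These ranges, again grouped after seeing the values, overlap narrowly. Trough and peak differed 1.20-fold (amplitude 0.13 ± 0.02), and the fitted peak lay at 2.64 ± 0.70 h (limma, adjusted p = 0.0118). With the time means ordered by level, 1 of 11 steps exceeded the spread between cycles (SD 0.08).

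Cacna1b, the N type gene, had a lowest value of 7.64, a median of 8.11 and a highest value of 8.21 in the first cycle, and 7.92, 8.12 and 8.31 in the second. The lowest value belonged to CT 40 and lay 0.28 below the next, which was 7.92 at CT 60. The fitted peak lay at 3.66 ± 0.86 h (amplitude 0.13 ± 0.03, 1.20-fold from trough to peak, limma, adjusted p = 0.0274). Means of both cycles were between 8.11 and 8.20 at every time from 20 to 10 h and between 7.82 and 8.07 from 12 to 18 h. Each array from 20 to 10 h read 8.09 or more and each of the others 8.07 or less. The times were grouped after seeing the values, so this is a description only. The gap is small beside the spread between cycles at a time (SD 0.09).

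Cacna1c, an L type gene, was highest at the end of the subjective night. It read 7.78 and 7.87 at circadian time 20 in the first and second cycle and 7.83 and 7.85 at 22 h, which were its 4 highest values of 24. At circadian times 12 and 14 it read 7.43 and 7.55 in the first cycle and 7.53 and 7.40 in the second. The first cycle had a median of 7.67 and the second of 7.64. The amplitude was 0.13 ± 0.02 with a peak at 23.4 ± 0.75 h (limma, adjusted p = 0.0176). Each cycle alone gave a peak at 24.0 ± 0.90 h and 22.8 ± 1.3 h. The array at CT 64, with 7.76, lay above the median of 7.65 over 24 arrays, at a time where the fit lies below its mean. At the same circadian time the first cycle (CT 40) read 7.49, beside a spread between cycles of SD 0.07. The arrays at CT 40 and CT 62 were among its 6 lowest.

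Cacna1d, the other L type gene, had a lowest value of 7.52, a median of 7.80 and a highest of 7.97 in the first cycle, and 7.60, 7.77 and 8.02 in the second. Its highest values were 8.02 at CT 46 and 7.97 at CT 20, and its 6 lowest included all 3 narrow arrays. The amplitude of 0.12 ± 0.03 with a peak at 0.62 ± 1.0 h did not pass (limma, adjusted p = 0.0592). It was 0.09 ± 0.03 without the 3 narrow arrays (adjusted p = 0.155) and 0.07 ± 0.03 with the background level as covariate (0.402). Cacna1d passed with an adjusted p of 0.0485 after median centring, 0.0446 with the stricter filter on dim genes and 0.0131 with the oligodendrocyte marker covariate. When single arrays were left out, its adjusted p was 0.0357 without CT 60, 0.0474 without CT 32 and 0.0494 without CT 26.

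The remaining T type genes gave no call. Cacna1h had an amplitude of 0.02 ± 0.04 (limma, adjusted p = 0.913), with values from 5.66 at CT 20 to 6.24 at CT 40. Its mean of 5.98 was the nearest of the 7 to the filter at 5.52. Cacna1i had an amplitude of 0.04 ± 0.03 (adjusted p = 0.705) and values from 6.59 to 7.10, the highest again at CT 40. With the 12 time means of each gene ordered by level, 0 of 11 steps exceeded the spread between cycles (SD 0.12 and 0.13). Cacna1d, with its larger amplitude, also had 0 of 11. Cacna1h scattered most of the 7 around its fit (SD 0.13). Its amplitude was 0.05 ± 0.04 without the 3 narrow arrays (adjusted p = 0.601) and 0.08 ± 0.04 with the background level as covariate (0.390). That of Cacna1i was 0.04 ± 0.02 (0.585) and 0.07 ± 0.03 (0.429). The array at CT 40 was thus the lowest of 24 for Cacna1a, Cacna1b, Cacna1d and Cacna1g and the highest for Cacna1h and Cacna1i.

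**Figure D2:**
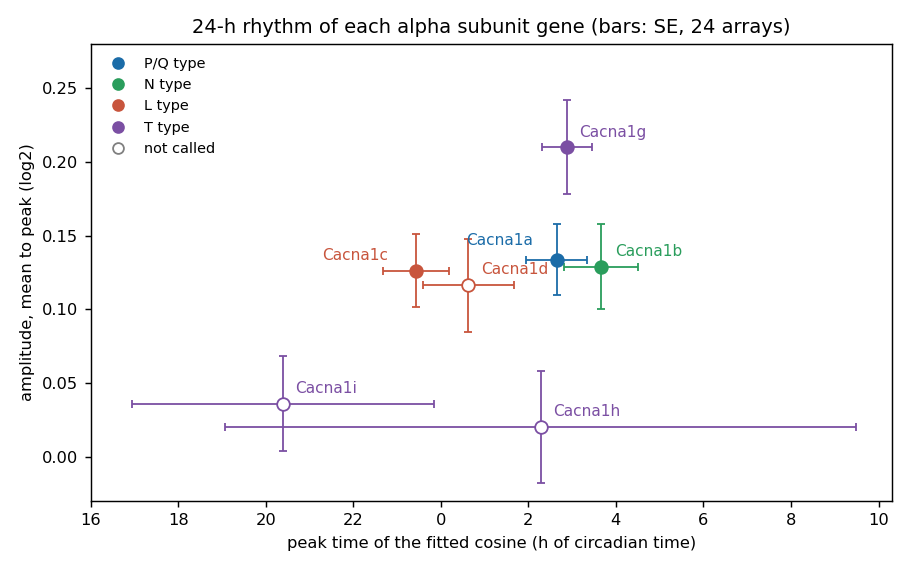
The 24-h amplitude in log2 units is plotted against the peak time in hours of circadian time for each gene, with bars of 1 standard error over 24 arrays, colours for the channel types and open symbols for genes that were not called. Cacna1c (23.4 h) and Cacna1d (0.62 h) lie to the left of Cacna1a (2.64 h), Cacna1g (2.88 h) and Cacna1b (3.66 h), and Cacna1g stands highest at 0.21.

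For reference, the clock genes peaked at 21.8 ± 0.82 h (Arntl, which encodes the partner of CLOCK), 3.89 ± 0.39 h (Nr1d1, a repressor of Arntl) and 9.53 ± 0.27 h (Per2, a repressor of the CLOCK complex). The fitted Cacna1c peak lay between those of Arntl and Nr1d1, and the fitted Cacna1g peak shortly before that of Nr1d1. Peaks of channel and clock genes were not tested against each other, so these orders are descriptions only. The period with the best fit between 20 and 28 h was 23.6 h for Cacna1g (95% range 21.4 to 26.2 h), 23.0 h for Cacna1a, 24.4 h for Cacna1b and 23.8 h for Cacna1c. The Cacna1b range reached the upper search limit. That of Per2 was 23.4 to 25.3 h.

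Without the 3 narrow arrays, 3 of the 7 genes were called, against 4.87% of all genes. Cacna1g kept an amplitude of 0.17 ± 0.03 (limma, adjusted p = 0.00945), Cacna1a of 0.13 ± 0.03 (0.0219) and Cacna1c of 0.11 ± 0.02 (0.0197). Cacna1b went from 0.13 ± 0.03 to 0.10 ± 0.02 and was not called (0.0653). When the background level was a covariate, 1 of the 7 was called, against 3.83% of all genes. This was Cacna1g, with an amplitude of 0.17 ± 0.03 (adjusted p = 0.0115). Cacna1a (0.11 ± 0.03, adjusted p = 0.0691), Cacna1c (0.11 ± 0.03, 0.0714) and Cacna1b (0.09 ± 0.03, 0.126) were not.

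Some general neuron markers peaked near the called channel genes. Of 10 such markers, Syn1, Snap25, Stmn2, Rbfox3 and Eno2 were called, 5 in all against 7.65% of all genes, with peaks between 1.57 and 3.68 h. The others were not called (limma, adjusted p from 0.0654 to 0.820). Of these, Elavl4 peaked at 23.4 h, Nefl at 3.8 h, Syt1 and Tubb3 at 5.1 h, and Nefm at 16.8 h. The mean of all 10 peaked at 2.44 h (amplitude 0.11 ± 0.03). It ranged from -0.29 at CT 40 to 0.16 at CT 50. Over the 24 arrays Cacna1a and Cacna1b correlated with this mean at r = 0.78 and 0.75, Cacna1g at 0.67, Cacna1c at 0.44 and Cacna1d at 0.38. For Cacna1h and Cacna1i r was -0.07 and -0.17. These arrays share their times and background level, so the correlations are descriptions only. With the marker mean as a covariate, 0 of the 7 genes were called by limma and 0.889% of all genes. Amplitudes were then 0.17 ± 0.04 for Cacna1g (unadjusted p = 0.00177, adjusted p = 0.110) and 0.11 ± 0.03 for Cacna1c (unadjusted p = 0.00352, adjusted p = 0.167). Those of Cacna1a and Cacna1b were 0.08 ± 0.03 and 0.07 ± 0.03, against 0.13 in both without it. The value for Cacna1d was 0.12 ± 0.04 (unadjusted p = 0.0310, adjusted p = 0.406).

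**Figure D3:**
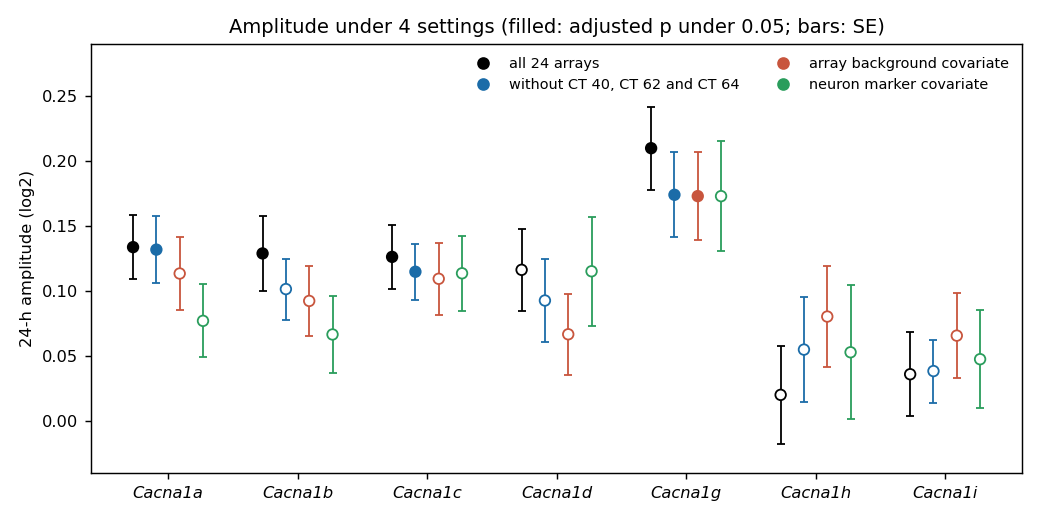
The 24-h amplitude of each gene in log2 units is shown with its standard error for all 24 arrays, for the fit that leaves out the 3 narrow arrays, and for the fits with the background level or the neuron marker mean as a covariate; filled symbols had an adjusted p under 0.05. Cacna1g stays between 0.17 and 0.21 in all 4, while Cacna1b falls from 0.13 to 0.07 with the neuron marker covariate.

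The second question was whether the channel types differ from each other in their rhythm. A call in 1 gene and none in another is no test of that, so the difference between genes was taken on each array and its 24-h terms were tested. Each channel gene served in turn as the reference against every other gene tested, and a pair was called when the larger of its 2 adjusted p was under 0.05. Of 21 pairs 4 were called, and 3 of these involved Cacna1c. Against Cacna1g the difference had an amplitude of 0.17 ± 0.03 (limma, adjusted p = 0.00351), with Cacna1c peaking 3.46 ± 0.81 h earlier. Against Cacna1b it was 0.13 ± 0.03 (adjusted p = 0.0101), with Cacna1c 4.23 ± 1.0 h earlier. Against Cacna1a it was 0.11 ± 0.03 (adjusted p = 0.0260), with Cacna1c 3.22 ± 0.86 h earlier. The fourth pair was Cacna1d and Cacna1g, with 0.13 ± 0.03 (adjusted p = 0.0295) and Cacna1d 2.26 ± 0.97 h earlier.

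Taken as Cacna1g minus Cacna1c and centred on its mean, the difference was -0.30 at circadian time 16 in both cycles, on arrays that both belong to the 3 narrow ones. It was 0.13 and 0.27 at 6 h, and 0.16 and 0.15 at 8 h. At 18 h it was -0.20 and -0.11, so both cycles were below the mean at 16 and 18 h and above it from 2 to 8 h. Cacna1c minus Cacna1b was 0.29 and 0.20 at 16 h, 0.11 and 0.18 at 20 h, -0.15 and -0.06 at 8 h and -0.08 and -0.12 at 10 h. At 14 h, next to its highest time, it was -0.09 and -0.22. In Cacna1c minus Cacna1a both cycles were above the mean from 16 to 22 h, between 0.04 and 0.23, and below it from 4 to 10 h, between -0.17 and -0.03. Cacna1g minus Cacna1d repeated less well, with -0.23 and 0.12 at 20 h and -0.11 and 0.16 at 0 h. Its cycles had the same sign at 4 h (0.23 and 0.17) and at 12 h (-0.17 and -0.14).

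**Figure D4:**
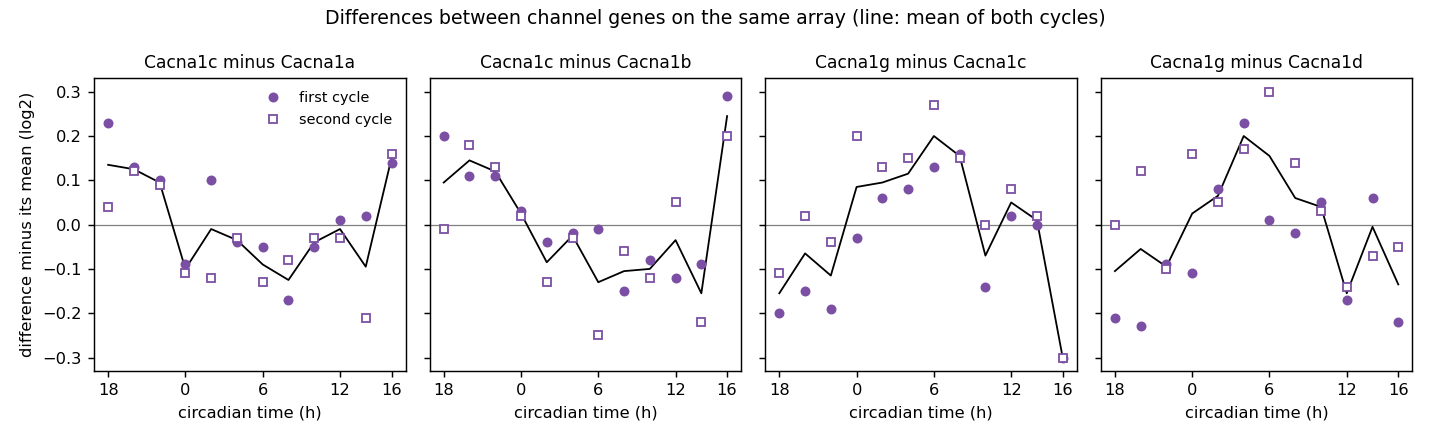
The log2 difference between channel genes on the same array, minus its mean over 24 arrays, is plotted against circadian time from 18 h through 0 to 16 h for the 4 called pairs, with filled circles for the first cycle, open squares for the second and a line through the mean of both. Cacna1g minus Cacna1c is lowest at 16 h (-0.30 in both cycles) and highest at 6 h (0.13 and 0.27). Cacna1c minus Cacna1a and Cacna1c minus Cacna1b are high at 16 h instead, and the latter is low at 14 h (-0.09 and -0.22).

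The Cacna1c and Cacna1g pair was also called without the 3 narrow arrays (difference amplitude 0.14, adjusted p = 0.00784) and with the background level as covariate (0.16, adjusted p = 0.00719). It was called with the neuron marker covariate too (adjusted p at most 0.0226 over the 12 alternatives). The pairs of Cacna1c with Cacna1b and with Cacna1a were called in the first 2 of these settings (adjusted p of 0.0104 and 0.0146 for Cacna1b, and 0.0151 and 0.0331 for Cacna1a). With the neuron marker covariate they were not (0.0715 and 0.201), and the Cacna1a pair was also not called without CT 18 (0.0555) or CT 32 (0.0512). The pair of Cacna1d and Cacna1g was not called in any of the 3 settings (0.0875, 0.0822 and 0.153), nor with array weights (0.0586), nor without CT 18, CT 52 or CT 54 (0.0504, 0.0504 and 0.0599).

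Differences from a rhythmic gene are common in these data, so the counts need their background. With Cacna1c as the reference 3 of 6 channel genes differed, against 58.9% of all genes, and with Cacna1g 4 of 6, against 89.2%. With Cacna1a 2 of 6 differed (background 56.5%), with Cacna1b 2 of 6 (51.4%) and with Cacna1d 1 of 6 (34.5%). With Cacna1h and Cacna1i as references 0 of 6 differed by limma in each case, against 0.48% and 0.724%. The share of channel genes that differ is thus no larger than the background for Cacna1a, Cacna1b, Cacna1c, Cacna1d and Cacna1g, and what the pairs give is the size and direction in time.

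Among Cacna1a, Cacna1b and Cacna1g no pair was called, which does not show that they run alike. Cacna1a and Cacna1b differed by an amplitude of 0.04 ± 0.02 (adjusted p = 0.568), with peaks 1.01 ± 0.68 h apart. Cacna1a and Cacna1g peaked 0.24 ± 0.60 h apart and differed by 0.08 ± 0.03 (adjusted p = 0.116), and Cacna1b and Cacna1g by 0.09 ± 0.03 (0.0758, and 0.0334 without CT 60). Cacna1d was not called against Cacna1a (0.07 ± 0.04, adjusted p = 0.327) or Cacna1b (0.10 ± 0.04, 0.163). The L type genes Cacna1c and Cacna1d differed by 0.04 ± 0.04 (0.663) and peaked 1.20 ± 1.1 h apart, an interval too wide to show that they run alike. Within the T type, Cacna1g and Cacna1i differed by 0.22 ± 0.06. This passed with Cacna1g as the reference (0.00164) and not with Cacna1i (0.0937), so the pair was not called. The same held for Cacna1g and Cacna1h (0.19 ± 0.06, 0.00675 and 0.314). The same array differences are tested with either reference, and the adjustment follows the share of all genes that differ from it. Unadjusted p by limma was 0.000921 and 0.00124 for the Cacna1i pair and 0.00494 and 0.00677 for the Cacna1h pair. For the called pair of Cacna1d and Cacna1g it was 0.00705 and 0.00647. The missing calls thus do not show smaller differences than in the called pairs.

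Array by array, Cacna1a correlated with Cacna1g at r = 0.84 and with Cacna1b at 0.82, over 24 arrays that share time and background level. Without the 3 narrow arrays these values were 0.80 and 0.74. Cacna1c and Cacna1d correlated at 0.57 with all arrays and 0.53 without the 3 narrow ones. Cacna1h ran against Cacna1d, at -0.53 with all arrays and -0.50 without the 3 narrow ones.

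The genes whose pattern was most like each member were taken by Pearson correlation over the 24 arrays, 3 for each. For Cacna1g they were Nrxn3, which encodes a presynaptic adhesion protein (r = 0.91), Nr1d1 (0.90) and Ppp6r2, which encodes a phosphatase subunit (0.89). Nr1d1 has the larger swing, with an amplitude of 0.57. For Cacna1a they were Dtd1, Podxl2 and Bicral (0.91 to 0.90), and for Cacna1b Aak1, Map1b, which encodes a microtubule protein of neurons, and Dpp6, which encodes a partner of potassium channels (0.93 to 0.91). Cacna1c was most like Macf1, a cytoskeletal linker gene, Lrrc7, a postsynaptic density gene, and Gm5577 (0.83 to 0.80), which peaked between 0.09 and 0.97 h. For Cacna1d they were Zfp521, Pcca and Setdb1 (0.87 to 0.83). Cacna1h reached only 0.70 with Pik3cd, 0.69 with Thnsl2 and 0.69 with Snph. For Cacna1i they were Rps6kc1, Lmnb1 and Pnmal1 (0.84 to 0.76), falling to 0.57 to 0.66 without the 3 narrow arrays.

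The level, the shape of the rhythm and a second daily peak were compared between cycles and over 12 h. The second cycle minus the first was 0.10 ± 0.04 for Cacna1g (limma, unadjusted p = 0.0241, adjusted p = 0.505), the largest of the 7. It was 0.06 ± 0.03 for Cacna1a, 0.05 ± 0.04 for Cacna1b and between -0.07 and 0.01 for the others. No channel gene was called, and 0% of all genes were (0 of 13956, with 1216 at an unadjusted p under 0.05, 1 of them a channel gene). The rhythm differed between cycles in 0 of the 7 genes and again 0% of all genes by limma (338 at an unadjusted p under 0.05, 0 of them channel genes). Terms of 12 h were called in 0 of the 7 and in 0.0358% of all genes. Cacna1d came nearest, with a 12-h amplitude of 0.08 ± 0.03 (unadjusted p = 0.0449, adjusted p = 0.219), and was the only 1 of the 7 under 0.05 unadjusted among 3061 such genes.

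The alpha subunit of high-voltage channels works with auxiliary subunits. Beta subunits (Cacnb genes) bring the channel to the membrane and alpha2delta subunits (Cacna2d genes) raise its density, while the Cacng genes encode gamma subunits, several of which act on AMPA receptors instead. Of 16 listed auxiliary genes 14 were measured and tested, and 4 were called, against the 7.65% of all genes given above. All 4 peaked before 6 h. Their amplitudes were 0.17 ± 0.04 for Cacna2d2 (peak 3.26 h, adjusted p = 0.0144), 0.22 ± 0.06 for Cacna2d3 (0.17 h, 0.0270), 0.27 ± 0.08 for Cacng7 (1.71 h, 0.0357) and 0.11 ± 0.03 for Cacnb4 (2.99 h, 0.0466). Of these, Cacna2d3 was the only 1 called without the 3 narrow arrays (amplitude 0.17, adjusted p = 0.0393), and 0 of 14 were called by limma with the background level as covariate.

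Cacng3 (0.18 ± 0.06, adjusted p = 0.0796), Cacng2 (0.11 ± 0.04, 0.205), Cacnb1 (0.08 ± 0.03, 0.223), Cacng1 (0.08 ± 0.04, 0.297) and Cacng4 (0.07 ± 0.03, 0.285) were not called. Cacnb2, Cacna2d1, Cacng8, Cacna2d4 and Cacng5 had amplitudes of 0.04 down to 0.01 with adjusted p from 0.668 to 0.993. Median amplitude over the 14 was 0.08. Cacna1e, the R type alpha subunit gene that is not among the 7, peaked at 2.11 ± 0.96 h with an amplitude of 0.18 ± 0.04 (adjusted p = 0.0288). It was also called without the 3 narrow arrays (0.14, 0.0288) but missed the threshold with the background level as covariate (0.10, 0.297). Cacna1f and Cacna1s, L type genes of retina and skeletal muscle, were measured and lay below the filter.

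**Figure D5:**
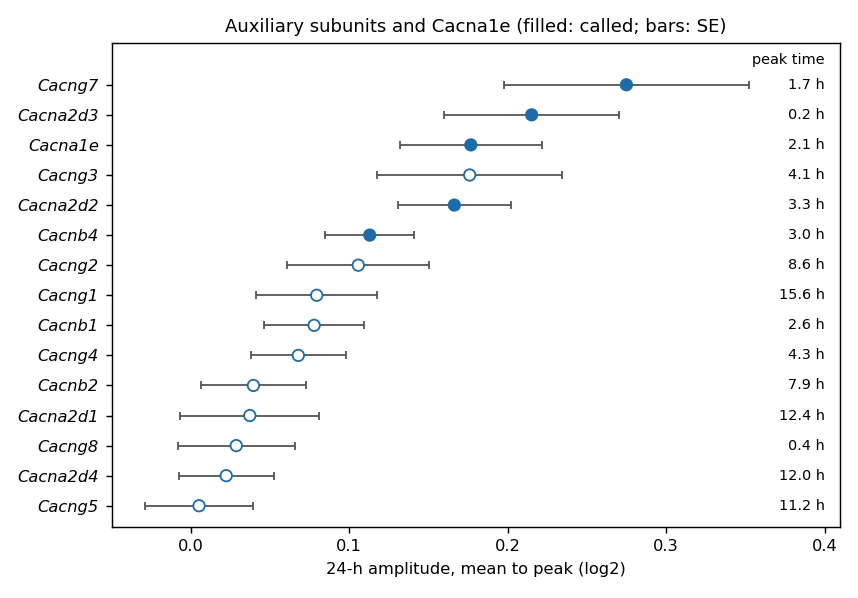
The 24-h amplitude in log2 units, with its standard error over 24 arrays, is shown for the 14 tested auxiliary subunit genes and Cacna1e, with filled symbols for called genes and the peak time in hours at the right. The called genes have amplitudes from 0.11 to 0.27 and peak between 0.17 and 3.26 h.

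Calcium that enters through the channels acts on sensors and kinases. Of 13 such genes tested 6 were called, against 7.65% of all genes, all with peaks before 6 h. Their list had a median amplitude of 0.07, as did all genes tested. Camk2a and Camk2b, which encode subunits of calcium/calmodulin-dependent kinase II, had amplitudes of 0.19 ± 0.04 (peak 3.31 h, adjusted p = 0.00726) and 0.20 ± 0.04 (2.99 h, 0.00733). Calm3, a calmodulin gene, had 0.15 ± 0.03 (2.03 h, 0.0140) and Camk2g, another kinase II gene, 0.16 ± 0.04 (4.06 h, 0.0214). Ppp3ca and Ppp3cb of the phosphatase calcineurin were the other 2. Without the 3 narrow arrays 2 were called, Camk2a (0.0368) and Camk2b (0.0384), and 1 with the background level as covariate, Camk2a (0.0391).

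Of 18 tested genes of calcium stores and clearance 1 was called, against 7.65% of all genes. This was Orai1, a store-operated channel gene, which peaked at 15.5 h (0.15 ± 0.04, adjusted p = 0.0377), and by limma 0 were called without the 3 narrow arrays or with the covariate. Of 9 calcium-activated potassium channel genes, whose channels limit firing, 2 were called, against the same 7.65%. Kcnn3 peaked at 0.62 h (0.19 ± 0.06, adjusted p = 0.0449) and Kcnmb3 at 14.9 h (0.15 ± 0.04, 0.0371). Without the 3 narrow arrays Kcnn3 was called (0.0337), Kcnmb3 was not (0.211), and Kcnn2 (0.0259) and Kcnma1 (0.0414) passed in addition. With the background level as covariate Kcnn3 was not called (0.12, adjusted p = 0.352), and Kcnn2 was the only 1 that passed (0.0433). Of 11 presynaptic partners tested 2 were called, again against 7.65%. They were Snap25, a fusion protein gene that is also among the neuron markers (1.77 h, 0.18 ± 0.04, adjusted p = 0.0182), and Unc13a, a vesicle priming gene (12.6 h, 0.30 ± 0.07, 0.0184). Unc13a was called without the 3 narrow arrays (0.0180) and Snap25 was not (0.0707). With the background level as covariate 0 of the 11 were called by limma.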

How the data were processed

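The authors deposited log2 probe set intensities of 24 Affymetrix arrays, normalised with RMA 1.3.1.187 in Affymetrix Expression Console, per the submitters' processing notes; background settings and genome build are not given in the sources used here. No further normalisation was applied. Of 35556 probe sets, 21789 had 1 gene symbol in the platform annotation, 1621 several and 12146 were not listed. Each of 19938 genes was taken from its probe set of highest mean, and genes below the 30th percentile of means (log2 5.52) were left out. Arrays were grouped by time from the labels. Models were fitted by limma 3.58.1 (R 4.3.3, eBayes), with Benjamini-Hochberg adjustment over all genes tested. With 1 pooled array per time, the spread around the cosine (21 residual degrees of freedom) is the error, and the number of arrays limits the precision. The tests were checked on simulated data of 13956 genes, with noise drawn independently for each gene. There 98.5% of genes with a planted 24-h amplitude of 0.3 and 43.3% with 0.15 were recovered, and 13 of 174 calls were false. Far fewer genes were called there than the 1067 in the data, so these shares do not carry over directly to the channel genes. The members and gene lists were chosen with earlier results of these data known. The rule named every member and auxiliary subunit, up to 4 called genes of each other list, 3 genes most like each member and 3 clock genes. Upstream windows are from RefSeq (GRCm38.p6). Alternatives were other filters, array weights, a trended prior, median centring, quantile normalisation, all probe sets, covariates for the background level, neuron or oligodendrocyte markers and linear time, and leaving out arrays.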

Additional observations from a re-analysis of the deposited data

How the results depend on the processing

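The 4 calls for a 24-h rhythm among the 7 channel genes became 1 with the background level as covariate, 0 with the neuron marker covariate (limma) and 1 at an adjusted p under 0.01. They became 3 without the 3 narrow arrays, and were 4 or 5 in the other alternatives and in every fit that left out 1 array. Over all genes the count of 1067 became 534, 124 and 170 in those first 3 settings, 679 without the 3 narrow arrays and 3556 with the oligodendrocyte marker covariate, and it ranged from 704 (without CT 28) to 1440 when 1 array was left out. The 4 called pairs became 1 with the neuron marker covariate and 8 with the oligodendrocyte marker covariate, and 2 (without CT 18) to 5 when 1 array was left out. Counts of 0 among the 7 for the change between cycles, the change in rhythm and the 12-h rhythm stayed at 0 in every alternative run (limma). For the change between cycles this includes the block of circadian times.

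Of the gene lists, whose alternatives were chosen after seeing the data, auxiliary subunits went from 4 called to 1 without the 3 narrow arrays and 0 with the background level as covariate (limma), and sensors and kinases from 6 to 2 and 1. Stores and clearance went from 1 to 0 and 0, presynaptic partners from 2 to 1 and 0, potassium channels from 2 to 3 and 1 (different genes, since Kcnn2 entered and Kcnmb3 left in both), and Cacna1e from 1 to 1 and 0. The cause was not tested. Counts and amplitudes carry no sign, so a reversal could not show in their size. The change between cycles, called for none of the 7, kept its sign over the alternatives for Cacna1a, Cacna1b, Cacna1g and Cacna1i. Its range included both signs for Cacna1c (-0.005 to 0.013), Cacna1d (-0.026 to 0.003) and Cacna1h (-0.001 to 0.037). Cacna1h, the nearest of the 7 to the filter, lay below the 50th percentile filter and has no value there. What a rhythm of its size would need in signal over background was not tested.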
